A study of Rattus norvegicus with 8 samples.

Results

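The miR-29 family was examined in small RNA sequencing counts from the striatum of 4 saline and 4 methamphetamine (METH) self-administered rats. Its members were chosen by name. They are the 3p strands rno-miR-29a-3p, rno-miR-29b-3p and rno-miR-29c-3p and the 5p strands rno-miR-29a-5p, rno-miR-29b-5p and rno-miR-29c-5p, written without the rat prefix from here on, and all 6 were present among the 752 mature miRNAs of the count table. A further strand of the same hairpins, miR-29b-1-5p, is described beside them. All 6 members and this strand passed the low-count filter, which kept 507 miRNAs. In METH rats no member differed from saline rats beyond the spread between rats. The levels of the 3 guide strands were correlated over the 8 rats, but some miRNAs outside the family followed each guide more closely.

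The animals were male wild-type Sprague-Dawley rats that had been trained to press a lever for food and fitted with a jugular catheter. In the METH group, lever presses delivered methamphetamine, a psychostimulant that raises extracellular dopamine. In the saline group, which had the same surgery, they delivered saline. The methods describe a choice of rats with stable responding at the end of the daily sessions for plasma sampling, and whether the sequenced striata came from exactly these rats was not stated. The striatum is a forebrain region that receives dense dopamine input and holds mostly medium spiny neurons together with glia and vessels. Each rat gave 1 library from bulk tissue, in which fewer cells of a type and less RNA per cell cannot be told apart. Age, the part of the striatum taken and the delay since the last session were not given in the sources used here. Total counts ranged from 12929302 in METH rat 1 to 27632443 in saline rat 3. METH rat 4 lay apart from the other libraries, at -21.5 on a first principal component with 42.0% of the variance, against -2.83 to 7.29 for the others. Fold changes, ratios and correlations of the miR-29 strands are therefore given with and without it.

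A miRNA is cut from a hairpin precursor as a short duplex. One strand, the guide, is loaded into an Argonaute protein and pairs with target mRNAs mainly through its seed, which is bases 2 to 8 counted from the 5′ end. The other strand is mostly degraded. The miR-29 guides are the 3p strands, they rise as the brain matures after birth, and they are abundant in astrocytes and in mature neurons. Known targets include mRNAs of collagens and other matrix proteins, of DNA methyltransferases and of pro-apoptotic BH3-only proteins.

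The mature sequences, from RefSeq on the rat assembly GRCr8, are shown because the family is defined by them. The seed is in capitals.
miR-29a-3p: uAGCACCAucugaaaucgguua
miR-29b-3p: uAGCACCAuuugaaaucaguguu
miR-29c-3p: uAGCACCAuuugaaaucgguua
miR-29a-5p: aCUGAUUUcuuuugguguucag
miR-29b-5p: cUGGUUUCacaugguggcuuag
miR-29c-5p: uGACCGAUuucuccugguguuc
miR-29b-1-5p: uUUCAUAUggugguuuagauuu

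All 6 members were matched by name. The 3 guides share the seed AGCACCA, and 0 other of the 694 mature rat sequences compared carry it. Counting from the 5′ end of miR-29a-3p, miR-29c-3p differs only by C10U. Besides that change, miR-29b-3p carries G18A, U21G and A22U and 1 additional base at the 3′ end, so that it ends in AGUGUU. This hexamer is known from work in cultured cells as a nuclear import element. Among the 694 sequences, it was the end of 2, namely miR-29b-3p and miR-92b-5p, a share of 0.288%. The 5p strands and miR-29b-1-5p have 4 different seeds, none of which was found in another of these sequences.

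The strands come from 4 hairpins at 2 loci, which are printed with the mature strands in capitals because they show which counts come from which locus.
Mir29b1: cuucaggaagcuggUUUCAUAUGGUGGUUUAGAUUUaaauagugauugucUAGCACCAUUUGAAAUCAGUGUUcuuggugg
Mir29a: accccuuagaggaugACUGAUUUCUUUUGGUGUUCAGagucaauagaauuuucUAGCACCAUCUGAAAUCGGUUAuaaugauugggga
Mir29b2: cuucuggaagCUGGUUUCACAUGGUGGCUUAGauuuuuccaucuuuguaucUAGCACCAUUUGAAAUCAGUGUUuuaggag
Mir29c: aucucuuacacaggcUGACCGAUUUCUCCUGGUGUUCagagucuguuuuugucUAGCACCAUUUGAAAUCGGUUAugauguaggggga

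On GRCr8, Mir29b1 lies at chr4:60618334-60618414 and Mir29a at chr4:60617955-60618042, both on the minus strand with 291 bases between them. Mir29b2 lies at chr13:109098831-109098911 and Mir29c at chr13:109099359-109099446, both on the plus strand with 447 bases between them. No gene of the RefSeq table lies within either gap. These positions are not those of rn6, to which the reads were aligned. The guide miR-29b-3p is identical in Mir29b1 and Mir29b2, so its count cannot be assigned to a locus. The 5p strands can be, because miR-29b-5p is the strand of Mir29b2 and miR-29b-1-5p that of Mir29b1.

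One property of the counts bears on every level below. Both arms of Mir29c and the 5p strand of Mir29b2 had an even count in all 8 libraries, which was true of 3 of the 6 members. Of the 517 rows with a mean count of at least 10, 29 (5.61%) were even in every library. In contrast, miR-29a-3p was odd in 3 libraries, miR-29b-3p in 2, miR-29a-5p in 2 and miR-29b-1-5p in 5. The source of the even counts was not tested. The 3 even-only members come only from the pair Mir29b2 and Mir29c. If each read of these rows was counted 2 times, their levels are 2 times too high relative to miR-29a-3p, miR-29a-5p and miR-29b-1-5p. The guide miR-29b-3p can also come from Mir29b2, and whether part of its count was affected was not tested. The shares of each guide among the guides and the order of levels are therefore also given with such rows halved, and all other levels are as deposited. Refitted in this way, the log2 fold changes of METH over saline described below moved by less than their SE, and that of miR-29a-5p turned from 0.02 to -0.025.

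The guide strands were first compared by level, as CPM, the counts of a strand as a proportion of the library's total after adjustment by TMM, which sets libraries to a common level from the bulk of miRNAs. All strands are 22 or 23 bases long. Together the 3 guides made up 2.03 ± 0.59% of all miRNA counts in saline rats and 1.96 ± 0.94% in METH rats (SD, n = 4 each). The share was lowest in METH rat 4, at 0.842%, and highest in METH rat 1, at 3.07%. The guide miR-29a-3p ranked 17th of 507 by mean CPM, miR-29b-3p ranked 36th and miR-29c-3p ranked 40th.

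Of the counts of the 3 guides, miR-29a-3p took 58.4 ± 3.67%, miR-29b-3p 22.5 ± 2.39% and miR-29c-3p 19.1 ± 3.62% (SD, n = 8). The first was above the other guides in all 8 libraries. The order of miR-29b-3p and miR-29c-3p was not settled, since miR-29c-3p was the higher in 2 libraries, saline rat 3 and METH rat 2. With even-only rows halved, miR-29c-3p fell below miR-29b-3p in all 8 libraries. The share of miR-29c-3p became 10.6 ± 2.17% (SD, n = 8), beside 64.6 ± 3.11% for miR-29a-3p and 24.8 ± 2.54% for miR-29b-3p. This halving left miR-29b-3p as deposited, although its reads can also come from Mir29b2.

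Saline rats 1 to 4 had 6563, 10060, 14820 and 12764 CPM of miR-29a-3p. In METH rats 1 to 4 the values were 15579, 13090, 10256 and 7259 CPM. The highest and the second lowest of the 8 values were both from METH rats, and the groups overlapped throughout. The means were 11052 ± 3571 CPM in saline rats and 11546 ± 3591 CPM in METH rats (SD, n = 4 each), a log2 fold change of METH over saline of 0.06 ± 0.31 (SE; adjusted p = 0.978, edgeR quasi-likelihood). Without METH rat 4 it was 0.25, and without METH rat 1 it was -0.12.

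For miR-29b-3p, the guide with 2 gene copies, saline rats 1 to 4 had 2900, 4186, 4925 and 6012 CPM. The METH rats had 6273, 4306, 3799 and 2398 CPM. Both the highest and the lowest rat were in the METH group. Group means were 4506 ± 1307 and 4194 ± 1603 CPM (SD, n = 4 each), and the log2 fold change was -0.10 ± 0.32 (SE; edgeR adjusted p = 0.978). It was 0.099 without METH rat 4 and -0.36 without METH rat 1.

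As a ratio of the highest to the lowest rat, the range among the guides was widest for miR-29c-3p, at 4.13-fold, against 2.37-fold for miR-29a-3p and 2.62-fold for miR-29b-3p. It was at 1677, 3753, 5528 and 5236 CPM in saline rats 1 to 4 and at 5416, 4914, 3343 and 1337 CPM in METH rats 1 to 4. Saline rat 1 and METH rat 4 were the low rats, and the other 6 lay between 3343 and 5528 CPM. The log2 fold change was -0.11 ± 0.46 (SE; edgeR adjusted p = 0.978), which became 0.19 without METH rat 4, 0.11 without saline rat 3, 0.034 without saline rat 4 and -0.34 without METH rat 1.

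The 5p strands were much less abundant. The level of miR-29c-5p was 700 ± 9.53 CPM in saline rats and 795 ± 208 CPM in METH rats (SD, n = 4 each). Its 4 saline values lay between 691 and 709 CPM, while METH rats 1 to 4 were at 616, 770, 702 and 1093 CPM. The highest value was that of METH rat 4. The log2 fold change of 0.18 ± 0.22 (SE; edgeR adjusted p = 0.923) became -0.00044 without this rat.

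The level of miR-29b-5p was 160, 171, 121 and 125 CPM in saline rats 1 to 4 and 84.6, 151, 177 and 62.8 CPM in METH rats 1 to 4. The METH rats held both the highest value and the lowest 2, and the log2 fold change was -0.28 ± 0.34 (SE; edgeR adjusted p = 0.927). Without METH rat 4 it was -0.058. The strand of the other miR-29b hairpin, miR-29b-1-5p, was lower still, at 26.0 ± 4.82 CPM in saline rats (SD, n = 4) and at 8.31, 27.5, 33.1 and 34.2 CPM in METH rats 1 to 4, with a log2 fold change of -0.01 ± 0.40 (SE; edgeR adjusted p = 0.989). METH rat 1, the smallest library, had 121 counts of it, and without this rat the log2 fold change was 0.28. Without METH rat 4 it was -0.18.

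The least abundant member, miR-29a-5p, was nearly constant. It was at 61.4, 54.8, 57.3 and 60.2 CPM in saline rats 1 to 4 and at 59.3, 58.8, 58.0 and 60.8 CPM in METH rats 1 to 4. The highest rat exceeded the lowest by 1.12-fold, whereas for miR-29a-3p, the other strand of the same hairpin, this range was 2.37-fold. The log2 fold change was 0.02 ± 0.20 (SE; edgeR adjusted p = 0.985) and 0.013 without METH rat 4. Levels of the 5p strands followed the order miR-29c-5p, miR-29b-5p, miR-29a-5p and miR-29b-1-5p in all 8 libraries. With even-only rows halved, miR-29b-5p fell below miR-29a-5p in 2 of them.

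**Figure D1:**
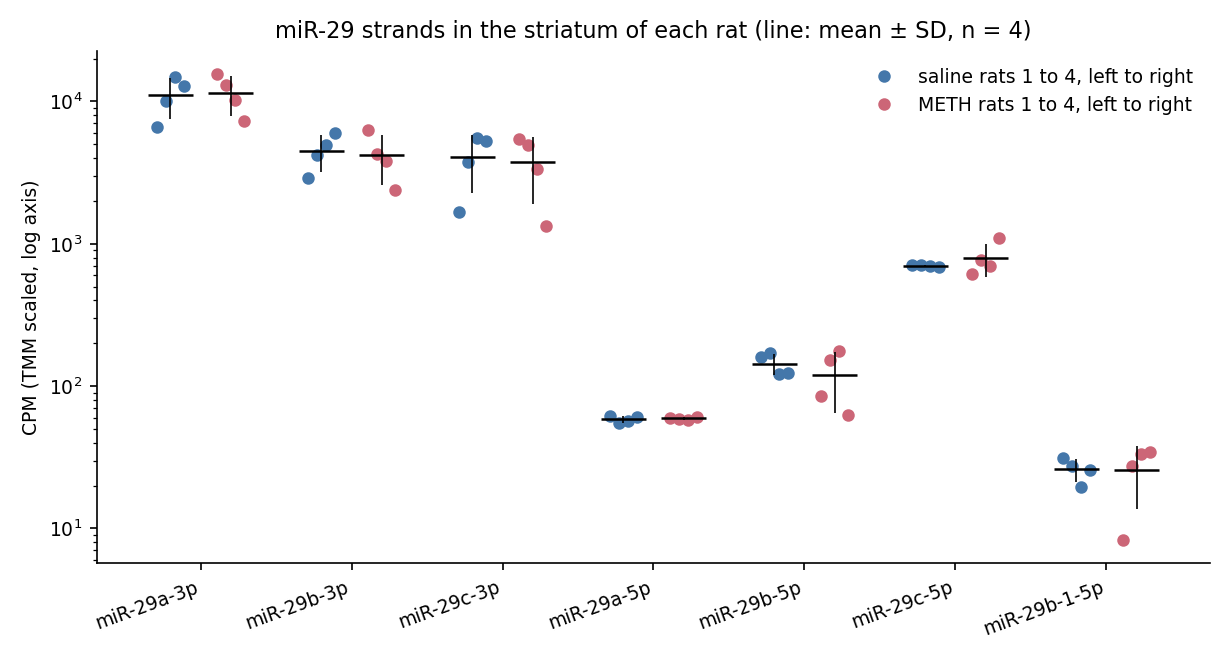
Level of each miR-29 strand in each rat, as CPM on a log axis, with saline rats in blue, METH rats in red, and lines for the mean ± SD of 4 rats. The groups overlap for every strand, and miR-29a-5p stays between 54.8 and 61.4 CPM while the 3p strands spread widely within both groups.

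Across the whole table, 0 of 507 miRNAs (0%) had an adjusted p under 0.05 in the edgeR quasi-likelihood test, and 28 (5.52%) had an unadjusted p under 0.05, of which 14 (2.76%) were higher and 14 (2.76%) lower in METH rats. The other tests, by contrast, called 8 miRNAs with DESeq2, 6 with the edgeR exact test and 7 with its likelihood ratio test. None of the 6 members was among the calls of any of these tests. At an unadjusted p under 0.05 there were also 0 members, the smallest unadjusted edgeR p being 0.421, for miR-29c-5p. The groups failed to overlap for 16 miRNAs (3.16%), with all METH rats above in 9 (1.78%) and below in 7 (1.38%), and for 0 members. The log2 fold change was below 0 for 3 members and for 52.7% of all miRNAs.

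The precision differed between strands. The intervals rest on a variance that edgeR moderates over all miRNAs, not on the spread of a strand alone. For miR-29a-5p, the SE was 0.20 while the SD of its log2 CPM over all rats was 0.052. The 95% interval of the METH to saline ratio ran from 0.746 to 1.38 for miR-29a-5p and from 0.809 to 1.6 for miR-29c-5p. For the guides it ran from 0.643 to 1.70 for miR-29a-3p, from 0.566 to 1.53 for miR-29b-3p and from 0.454 to 1.89 for miR-29c-3p. For miR-29b-5p it ran from 0.490 to 1.39. In this fit with all rats, a 2-fold rise lay outside the interval of each of the 6 members. A 2-fold fall lay inside the intervals of miR-29c-3p and miR-29b-5p. The bound on a rise rests on this fit, as intervals were not computed with a rat left out. The log2 fold change of miR-29c-3p was 0.19 ± 0.37 (SE) without METH rat 4 and 0.11 ± 0.51 without saline rat 3. That of miR-29a-3p was 0.27 ± 0.35 without saline rat 3.

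**Figure D2:**
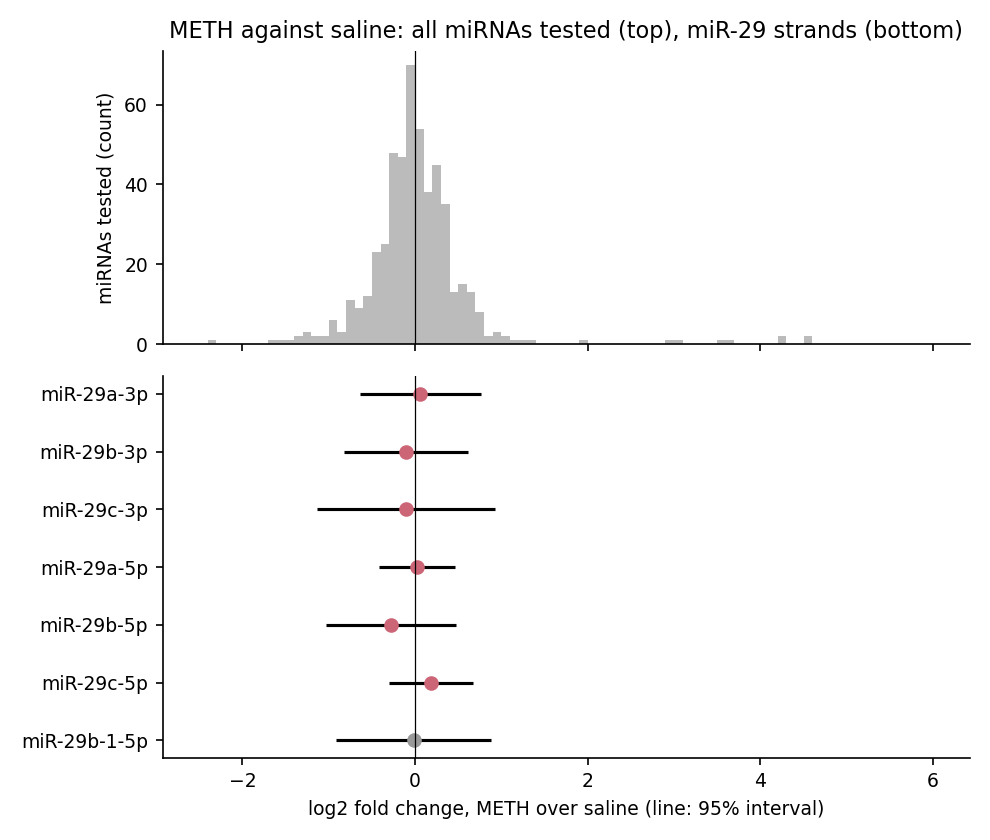
Top, the number of miRNAs at each log2 fold change of METH over saline among all 507 tested. Bottom, the log2 fold change of each miR-29 strand with its 95% interval. All intervals cover 0, and the widest is that of miR-29c-3p.

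The strands were next compared within libraries, since a ratio of 2 counts of the same library does not depend on scaling. In the counts, miR-29a-3p exceeded miR-29a-5p by 107-fold to 263-fold and miR-29b-3p exceeded miR-29b-5p by 18.2-fold to 74.1-fold. The guide miR-29c-3p exceeded its 5p strand by only 1.22-fold to 8.80-fold. Both arms of Mir29c were even-only, so halving leaves this last ratio as it is, whereas the miR-29b ratio becomes 2 times higher because only its 5p strand was even-only. The miR-29b ratio also divides the guide of both miR-29b hairpins by the 5p strand of Mir29b2 alone. Any part of the guide count that came from Mir29b2 was left as deposited by the halving.

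Saline rats 1 to 4 had 2.37, 5.29, 7.98 and 7.58 counts of miR-29c-3p per count of miR-29c-5p. METH rats 1 to 4 had 8.80, 6.38, 4.76 and 1.22. The ratio was lowest in METH rat 4 and next lowest in saline rat 1, and the groups overlapped. The same 2 rats were lowest for miR-29a, at 107 in saline rat 1 and 119 in METH rat 4, against 177 to 263 in the other 6 rats. For miR-29b the lowest was saline rat 1, at 18.2, but METH rat 4, at 38.2, was in the middle of the range.

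The 5 ratios were compared between groups with an exact two-sided permutation of labels over the 70 assignments of 8 rats, and the smallest unadjusted p was 0.143. The smallest p this design allows is 0.0286, so that after adjustment over 5 ratios a single separated ratio could not have passed 0.05. The log2 ratio of 3p to 5p was 7.50 ± 0.55 in saline and 7.55 ± 0.49 in METH rats for miR-29a (SD; exact permutation p = 0.857, adjusted p = 0.857). It was 4.93 ± 0.65 and 5.18 ± 0.77 for miR-29b (exact permutation p = 0.657, adjusted p = 0.821). For miR-29c it was 2.39 ± 0.81 and 2.09 ± 1.25 (exact permutation p = 0.657, adjusted p = 0.821). This difference of -0.30 turned to 0.30 without METH rat 4 and became -0.69 without saline rat 1, -0.65 without METH rat 1 and -0.50 without METH rat 2. It shrank to -0.10 without saline rat 3 and to -0.13 without saline rat 4. The differences for miR-29a and miR-29b, 0.049 and 0.25 with all rats, were 0.27 and 0.22 without METH rat 4, and both were below 0 without saline rat 1 or without METH rat 1, as was that for miR-29a without METH rat 2. Among guides, the log2 ratio of miR-29c-3p to miR-29a-3p was -1.52 ± 0.30 and -1.75 ± 0.47 (exact permutation p = 0.514, adjusted p = 0.821), and the difference of -0.22 became 0.0065 without METH rat 4.

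The log2 ratio of miR-29b-3p to miR-29a-3p was -1.28 ± 0.22 in saline rats and -1.49 ± 0.14 in METH rats (SD, n = 4 each), which gave the smallest p of the 5 (exact permutation p = 0.143, adjusted p = 0.714). METH rats 1 to 4 had 0.403, 0.329, 0.370 and 0.330 counts of miR-29b-3p per count of miR-29a-3p. Saline rats 1 to 4 had 0.442, 0.416, 0.332 and 0.471. Saline rat 3 lay among the METH rats and the others above them. The difference of -0.21 was -0.17 without METH rat 4.

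The strand ratios of other miRNAs were set beside these. Over 174 other hairpins with both arms tested and paired by the RefSeq table, which is not complete, the log2 ratio of 3p to 5p, taken relative to each hairpin's median over the 8 rats, had a median of -0.43 in METH rat 4 and of -0.06 to 0.05 in the other libraries. In METH rat 4 it was -0.72 for miR-29a, 0.21 for miR-29b and -2.25 for miR-29c. In saline rat 1 it was -0.88 for miR-29a, -0.86 for miR-29b and -1.29 for miR-29c, beside a median of -0.01 over the other hairpins. The part of the library in these ratios was not tested.

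**Figure D3:**
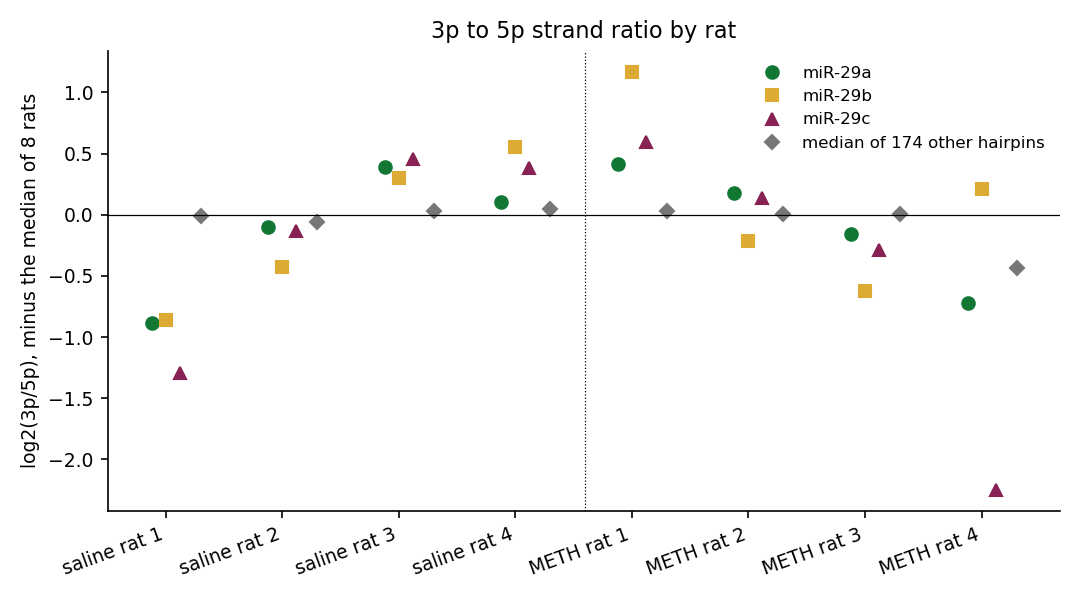
Log2 ratio of 3p to 5p counts in each rat, relative to the median of 8 rats, for miR-29a, miR-29b and miR-29c, with the median of 174 other hairpins as grey diamonds. The ratios of miR-29a and miR-29c are lowest in saline rat 1 and METH rat 4, and the other hairpins depart from 0 mainly in METH rat 4, at -0.43.

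The guides varied together. Over the 8 rats, log2 CPM of miR-29a-3p and miR-29c-3p had a Pearson r of 0.956 (exact permutation p = 0.00136, adjusted p = 0.00205 over 3 pairs) and a Spearman rho of 0.905 (exact permutation p = 0.00456, adjusted p = 0.00685). For miR-29b-3p and miR-29c-3p, r was 0.942 (exact permutation p = 2.5e-04, adjusted p = 7.4e-04) and rho was 0.929 (exact permutation p = 0.00223, adjusted p = 0.00670). For miR-29a-3p and miR-29b-3p, r was 0.908 (exact permutation p = 0.00310, adjusted p = 0.00310) and rho was 0.881 (exact permutation p = 0.00724, adjusted p = 0.00724).

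As deviations from the group means, the 3 values of r were 0.973, 0.942 and 0.934 in the same order. Each r was also taken over the 6 rats left without the 2 farthest from the median, with no test. Without saline rat 1 and METH rat 4, r was 0.933 for miR-29a-3p and miR-29c-3p and 0.747 for miR-29a-3p and miR-29b-3p. Without METH rat 1 and METH rat 4, it was 0.908 for miR-29b-3p and miR-29c-3p. The guides share their library, the scaling factor and most of their sequence, and reads of one could have been counted as another. These parts in the correlation were not tested. The permutation tests ask only whether there is any correlation, and no r over all pairs of miRNAs was taken for comparison. The 3 miRNAs outside the family closest to each guide, listed below and picked as the highest, had r of 0.975 to 0.991. All of these exceeded the values within the family over all rats. With METH rat 4 alone left out, r was 0.975 for miR-29a-3p and miR-29c-3p, 0.893 for miR-29b-3p and miR-29c-3p and 0.887 for miR-29a-3p and miR-29b-3p. A group of 4 rats is too small for a correlation of its own.

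The strands differed widely in spread. The SD of log2 CPM over 8 rats was 0.46 for miR-29a-3p, 0.48 for miR-29b-3p and 0.80 for miR-29c-3p, against a median of 0.48 over all 507 miRNAs. For miR-29a-5p it was 0.052, the lowest of the 507, followed by 0.078 for miR-145-3p, which was named after its value was seen. For miR-29c-5p it was 0.25, the 54th lowest.

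The place of miR-29a-5p rests on the scaling. With library totals its SD was 0.16, the 14th lowest, and miR-29c-5p was then the 4th lowest, at 0.13. Without METH rat 4, miR-29a-5p was the 2nd lowest, at 0.053, and miR-29c-5p was the 6th lowest, at 0.095. Both settings were chosen after the data had been seen, and in both the 3 guides had larger SDs than these 5p strands.

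**Figure D4:**
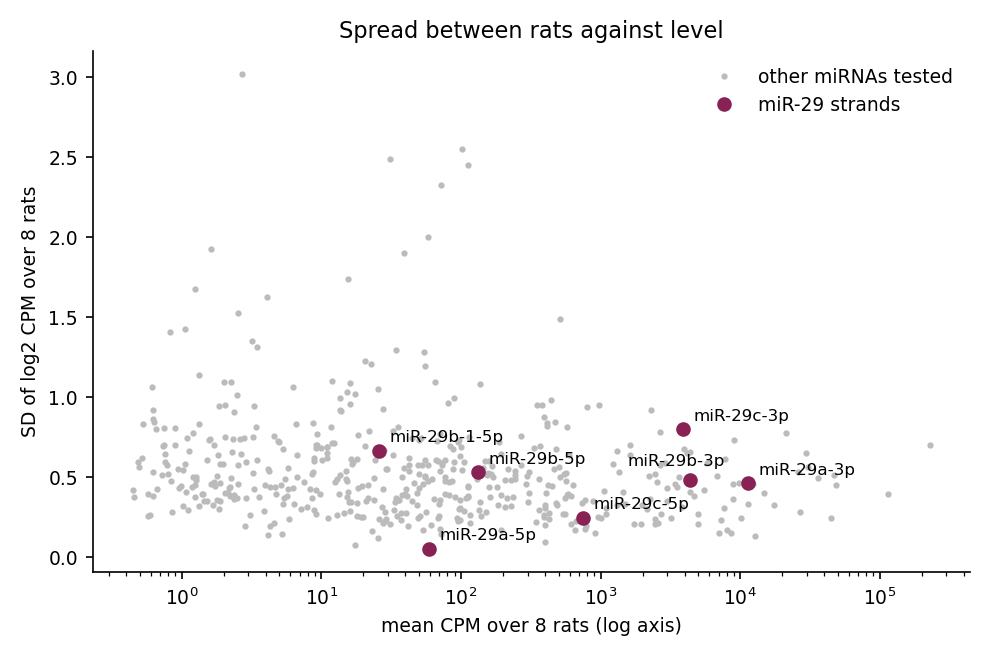
SD of log2 CPM over 8 rats against mean CPM on a log axis, for the miR-29 strands in purple and the other tested miRNAs in grey. The SD of miR-29a-5p, 0.052, is at the bottom of the plot, while that of its partner strand miR-29a-3p, 0.46, is near the median of all miRNAs.

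The miRNAs whose log2 CPM followed the guides most closely over the 8 rats were then listed, as a description of these libraries. For miR-29a-3p they were miR-376b-3p (Pearson r = 0.991), miR-376a-3p (r = 0.984) and miR-154-3p (r = 0.975). For miR-29b-3p they were miR-101a-3p (r = 0.984), miR-34b-5p (r = 0.982) and miR-540-5p (r = 0.975), the last at only 2.30 CPM in saline rats. For miR-29c-3p they were miR-101a-5p (r = 0.987), which was at 1.95 CPM in saline rats, miR-299a-3p (r = 0.979) and miR-376a-3p (r = 0.978). Like the guides, miR-376a-3p was low in saline rat 1, at 128 CPM, and in METH rat 4, at 117 CPM, against 275 to 658 CPM in the other rats. None of these has the miR-29 seed. Without METH rat 4, a setting chosen after the data had been seen, these values of r lay between 0.967 and 0.991.

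Marker miRNAs were set beside the labelled tissue, but they cannot tell the striatum from other parts of the brain. Of 6 miRNAs typical of neurons, all were detected, with a summed level of 287932 to 497003 CPM in saline rats and 328582 to 476828 CPM in METH rats. The most abundant was miR-124-3p, at 228280 CPM over the 8 rats. The 5 glia-linked miRNAs, which include miR-26a-5p and miR-24-3p, summed to 56929 to 87954 CPM in saline rats and 63592 to 83175 CPM in METH rats. Of these 5, 4 had a log2 fold change above 0 and 1 below 0, and 0 passed the edgeR test, with a median of 0.28 against -0.02 over all miRNAs. This median was 0.17 without METH rat 4, against -0.0031 over all miRNAs. Of the 6 neuronal miRNAs, 3 had a log2 fold change above 0 and 3 below 0, with a median of 0.01, and 0 passed the edgeR test.

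Saline rat 1 and METH rat 4, where the guides were lowest, had neuronal sums of 307673 and 341764 CPM and glia-linked sums of 87954 and 81415 CPM. These sums join members with different patterns. In METH rat 4, miR-124-3p was the lowest of all rats, at 97752 CPM against 127824 to 342449 CPM. Of the glia-linked miRNAs, miR-26a-5p was highest in METH rat 4, at 59976 CPM. There miR-24-3p was low, at 9591 CPM, and only METH rat 2 was lower, at 8830 CPM. METH rat 1, where miR-29a-3p was highest, had 328582 and 68661 CPM. The neuronal sum was lower still in saline rat 2, at 287932 CPM. Whether the cell makeup of the samples has a part in the level of the guides was not tested.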

How the data were processed

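The authors purified small RNA on a gel, made libraries with unique molecular identifiers (UMIs), trimmed reads with cutadapt 1.18, aligned them to rn6 with STAR 2.7.0e and counted them with featureCounts of Subread 1.6.4. The deposited values are raw counts per mature miRNA. Merging of reads by UMI, the annotation release and the treatment of reads with several alignments were not given in the sources used here. If PCR copies or multiple alignments were counted, some counts are inflated.

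Of 752 miRNAs, 90 had no count. The filterByExpr function (minimum count 10) kept 507. Library sizes were corrected by TMM, the trimmed mean of M-values method. METH was compared with saline in edgeR (version 4.0.16, R version 4.3.3) by its quasi-likelihood F test in a model holding group alone. The Benjamini-Hochberg adjustment ran over all 507, and the threshold was 0.05. The SE of a log2 fold change was derived from its size and the F statistic. Log2 CPM used a prior count of 2, ratios an offset of 0.5. The test was checked on simulated counts. Alternatives used DESeq2 1.42.0 and limma 3.58.1 among others. Replicates are the rats numbered in the labels, 1 library each.

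All members were named, as were the 3 miRNAs outside the family with the highest Pearson r with each guide. Members and lists were chosen with earlier results of these data known. The lists were neuron, oligodendrocyte, glia-linked, microglia and leukocyte, vascular, choroid plexus, erythrocyte and progenitor-linked.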

Additional observations from a re-analysis of the deposited data

How the results depend on the processing

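At an adjusted p under 0.05, the number of miRNAs called was 0 in the edgeR quasi-likelihood test (28 at an unadjusted p under 0.05), 8 with DESeq2, 6 with the edgeR exact test, 7 with the likelihood ratio test and 0 to 5 when 1 rat was left out, with the 5 without METH rat 1. No member passed in any setting. With all rats, 61 of 66 alternative fold changes of members kept their direction. Those that did not were miR-29a-5p with library totals (-0.097) and with even-only rows halved (-0.025), miR-29b-3p (0.018) and miR-29c-3p (0.013) with upper quartile factors, and miR-29b-5p with limma voom and quality weights for the libraries (0.080). For miR-29b-1-5p the direction turned with relative log expression factors (0.048), upper quartile factors (0.049), DESeq2 (0.048) and voom with these weights (0.066). The median over all miRNAs moved from -0.02 to -0.12 with library totals and to 0.08 with upper quartile factors. Adjusted p-values of members lay between 0.822 and 1.00 in these settings. With 1 rat left out, log2 fold changes ranged from -0.12 to 0.27 for miR-29a-3p, -0.36 to 0.099 for miR-29b-3p, -0.34 to 0.19 for miR-29c-3p, -0.021 to 0.087 for miR-29a-5p, -0.55 to -0.058 for miR-29b-5p, -0.00044 to 0.29 for miR-29c-5p and -0.21 to 0.28 for miR-29b-1-5p. Differences in log2 ratio then ranged from -0.20 to 0.27, -0.098 to 0.50 and -0.69 to 0.30 for the strand ratios of miR-29a, miR-29b and miR-29c, from -0.31 to -0.14 for miR-29b-3p to miR-29a-3p, and from -0.37 to 0.0065 for miR-29c-3p to miR-29a-3p. The cause of these reversals was not tested. Pearson r between guides lay between 0.881 and 0.979 with library totals, with a prior count of 0.5 and with single rats left out, and fell to 0.747 for miR-29a-3p and miR-29b-3p without both saline rat 1 and METH rat 4. With the replicate block, the count of calls was 0 and the fold changes of members ran from -0.39 to 0.15, but rats of the same number share only that number (correlations of -0.15 to -0.36).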

Other observations

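Other cell types were described by the remaining marker lists, and none of their miRNAs passed the edgeR test. The oligodendrocyte list of 4 summed to 3381 to 3682 CPM in saline rats and 2588 to 4816 CPM in METH rats, with a median log2 fold change of -0.21, which was 0.03 without METH rat 4. The 6 microglia and leukocyte miRNAs had a median of -0.03, the 4 vascular ones 0.05, and the 6 progenitor-linked ones, of the miR-17-92 cluster, -0.02. These medians were 0.04, 0.12 and 0.07 without METH rat 4. The 3 choroid plexus miRNAs had a median of 0.35, with all 3 above 0, but without METH rat 4 the median was -0.09 and 2 of the 3 were below 0. Their sum was 7105 CPM in METH rat 4 against 2745 to 3546 CPM in the other 7 rats. Of 4 erythrocyte miRNAs, 2 were tested, with a median of 0.65 and a sum of 2816 CPM in METH rat 4 against 341 to 648 CPM in the other rats. Both were below 0 without METH rat 4, with a median of -0.41. The setting without this rat was chosen with the data known. METH rat 4 was also the rat with the lowest miR-29b-3p and miR-29c-3p, and the part of these cell types in that was not tested.

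The GC content of the strands was set beside their spread after the data had been seen. It was 40.9% for miR-29a-3p, 34.8% for miR-29b-3p and 36.4% for miR-29c-3p, against a median of 47.8% over the 465 tested miRNAs (91.7%) with a RefSeq sequence. For miR-29a-5p it was 36.4%. Across these 465 miRNAs, which are not independent replicates, the Spearman correlation of GC content with the deviation of a library from the mean was 0.21, 0.15, 0.01 and -0.04 in saline rats 1 to 4 and -0.21, -0.20, 0.26 and -0.07 in METH rats 1 to 4. Over the 156 miRNAs with a GC content of at most 43.5%, where the 3 guides lie, the median deviation was -0.17 in METH rat 4 and -0.15 in saline rat 1, the lowest 2 of the 8 libraries, against -0.10 to 0.09 in the others. Over the 166 miRNAs with a GC content of at least 52.4%, it was -0.11 in METH rat 4 and 0.06 in saline rat 1. The strand with the lowest GC content of the family, miR-29b-1-5p at 27.3%, was at its highest level in METH rat 4. The part of GC content in the spread of the guides was not tested.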
